A study of Mus musculus with 20 samples.

Results

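Nuclear-encoded subunits of the mitochondrial respiratory chain and ATP synthase were followed through an RNA immunoprecipitation (RIP-seq) of CPEB4 from activated mouse CD8 T cells. Members were the genes whose symbols begin with Ndufa, Ndufb, Ndufc, Ndufs or Ndufv (complex I), Sdha to Sdhd (complex II), Uqcr or Cyc1 (complex III), Cycs (cytochrome c), Cox4 to Cox8 (complex IV) and Atp5 (complex V), with assembly factors left out. Of 90 mouse genes in RefSeq that meet this rule, 84 had a named row among the 20586 rows of counts per 3′ UTR: 38 for complex I, 4 for complex II, 9 for complex III, 1 for cytochrome c, 17 for complex IV and 15 for complex V. Atp5g1, Atp5g2, Cox6c, Ndufb1, Ndufb4b and Ndufb4c were not analysed here. Rows were named by position, and 64 of the 84 lay in 1 candidate gene. Another 15, among them Sdha, Sdhc, Sdhd, Atp5e, Atp5j, Atp5k, Ndufa10, Ndufab1 and Cox6a1, were named by the gene starting within 3000 bases after the UTR start, 3 (Uqcrc2, Cox4i2 and Cox6a2) by row order between 2 candidates and 2 through an older symbol, so these names are less certain. Of the 84 members, 80 had enough counts to be tested; Cox7b2, Cox8b and Cox8c had 0 counts in every usable run and Cox4i2 had 6 counts in all.

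CPEB4 binds cytoplasmic polyadenylation elements in the 3′ UTRs of mRNAs and governs the length of their poly(A) tails and their translation. The 4 groups were immunoprecipitates (IP) from wild-type (WT) cells, IP from Cpeb4 knockout (KO) cells, KO input and WT input. CD8 T cells from spleen and lymph nodes of both genotypes had been stimulated for 48 h with anti-CD3 and anti-CD28, each at 1 μg/ml, and with 20 ng/ml IL-2, so all groups share this activation. Input RNA was poly(A)-selected and amplified for 12 PCR cycles, whereas IP RNA was not selected and was amplified for 7 cycles, so selection and precipitation cannot be told apart between IP and input. The labels give neither the part of Cpeb4 that the knockout removes nor whether libraries came from separate animals, and all p-values therefore reflect the variation among the present samples, part of which may be technical.

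The proteins of this set carry out oxidative phosphorylation. Complex I takes electrons from NADH and complex II from succinate, complex III passes them to cytochrome c, and complex IV reduces oxygen; the proton gradient made by complexes I, III and IV drives the ATP synthase, complex V. The mitochondrial genome encodes core membrane subunits of complexes I, III, IV and V but none of complex II, and all other subunits are made from nuclear genes on cytosolic ribosomes, often near mitochondria. T cells that leave quiescence enlarge their mitochondria and raise both glycolysis and respiration. Nuclear respiratory factor 1 (NRF1), GABPA (an ETS factor also called NRF2) and YY1 are known to act at promoters of many of these genes.

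Promoter letters of these factors are shown for members from both ends of the range described below, as a sequence feature that the choice of members did not use. RefSeq promoters (GRCm38.p6, 250 bases before to 50 after the start) were at hand for 68 members. The letters GCGCANGCGC (NRF1), CCGGAAG (GABPA) and AAGATGGCG (YY1) were searched on both strands; the end of CCGGAAG and the start of AAGATGGCG share the letters AAG, so these 2 could overlap. NRF1 letters occurred in 16 of 68 members (23.5%) against 7.17% of 17492 protein-coding genes, GABPA letters in 25% against 12.9%, YY1 letters in 10.3% against 2.14%, and any of the 3 in 50% against 20.0%. Each stretch of 30 bases below is written 5′ to 3′ on the strand of the gene, with the matched letters in capitals, which read CTTCCGG for GABPA, and GCGCCTGCGC for NRF1 at Ndufs6, where the match lies on the opposite strand. The first 3 genes had the higher level in the WT IP run of batch 3 and the last 3 in the KO IP run of batch 3.
Atp5k, NRF1, chr5:108434430-108434459, minus strand: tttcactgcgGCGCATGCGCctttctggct
Atp5e, GABPA, chr2:174464185-174464214, minus strand: tacggccacagCTTCCGGtagccgctcggc
Ndufs6, NRF1, chr13:73328479-73328508, minus strand: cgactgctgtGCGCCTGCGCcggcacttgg
Sdhd, NRF1, chr9:50603909-50603938, minus strand: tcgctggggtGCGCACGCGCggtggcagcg
Cox8a, GABPA, chr19:7217603-7217632, minus strand: tttccgaaataCTTCCGGctcgggcgtccg
Atp5j, YY1, chr16:84835045-84835074, minus strand: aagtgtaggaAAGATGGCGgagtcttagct
A match is a match of letters only, and the letters stood at both ends of the range and between them. Among members at least 2-fold higher in that WT IP run, 11 of 17 with a promoter held any of them. Among those at least 2-fold lower 3 of 5 did, and among those within 2-fold 20 of 42 did.

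Of 20 sequencing runs of 12 libraries, only 9 runs had counts in the order of the row names, and only these are used. By name they are 6 libraries: WT IP D1 (batches 2 and 3), KO IP D1 (batches 2 and 3), KO input D1, KO input RIP8, WT input D1 and WT input RIP8 (batches 1 and 2). The 9 runs held 364113 to 4182830 counts. Much of some runs was a row in Lars2, the mitochondrial leucyl-tRNA synthetase gene, which held 34.8 to 50.1% of counts in 5 runs (WT IP D1 batch 2, both KO inputs, WT input D1 and WT input RIP8 batch 1) and 1.16 to 5.40% in the other 4 (WT IP D1 batch 3, both KO IP D1 runs and WT input RIP8 batch 2). It was left out of all totals here, which gave 192134 to 317395 counts in the 5 Lars2-rich runs and 2464476 to 4085902 in the 4 Lars2-poor runs. Levels are CPM, counts per 1000000 counts of the run without that row. Several runs went against their labels. The runs labelled WT IP D1 batch 2, KO input D1 and WT input D1 differed by little more than sampling noise, with a chi-square per degree of freedom of 1.05 to 1.12 between them, whereas the WT IP D1 runs of batches 3 and 2 gave 58.7 and the KO IP D1 runs 35.0. KO IP D1 batch 3 was close to WT input RIP8 batch 2 (3.09). Each group name below is therefore that of the label only. Cpeb4 itself had 12.0 and 123 CPM in the WT IP runs of batches 3 and 2, 16.2 and 47.1 CPM in the KO IP runs of batches 2 and 3, 110 and 126 CPM in the KO inputs, and 34.3 to 195 CPM in the WT inputs, so its 3′ UTR did not separate the labels. CD8 T cell markers (7 of 7 with a row) summed to 2368 to 9552 CPM over the 9 runs, against at most 104 CPM for B cell, 102 CPM for myeloid, 10.0 CPM for NK cell and 177 CPM for CD4 T cell markers. In bulk RNA, fewer cells of a type and less RNA per cell cannot be told apart.

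The summed level of the 84 members split the runs by their Lars2 share and not by label. It was 12628 CPM in WT IP D1 batch 3 and 1347 CPM in WT IP D1 batch 2. The KO IP D1 runs held 8804 CPM in batch 2 and 8260 CPM in batch 3. Both KO inputs were low, at 1454 CPM (D1) and 1226 CPM (RIP8), and the WT inputs held 1181 CPM (D1), 1446 CPM (RIP8 batch 1) and 8839 CPM (RIP8 batch 2). Each of the 4 Lars2-poor runs thus stood above each of the 5 Lars2-rich runs, whatever the label. For single members, the 5 Lars2-rich runs all lay below the 4 Lars2-poor runs in 67 of 80, against 18.8% of all 11496 rows tested. These were all 9 members of complex III, all 15 of complex V, Cycs, 29 of 38 of complex I, 10 of 13 of complex IV and 3 of 4 of complex II (Sdha, Sdhb and Sdhd). The opposite order held for 4 of 80 members, Ndufa4l2, Ndufab1, Ndufb5 and Ndufb8, against 22.3% of all rows. For Ndufa4l2 it rests on 1 count in WT IP D1 batch 2 (4.935 CPM, against 4.761 CPM in WT IP D1 batch 3). Ndufb5 had only 2 to 5 counts in the Lars2-rich runs. The Lars2-rich runs are also the shallow ones, and the part of depth or of library type in this order was not tested.

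**Figure D1:**
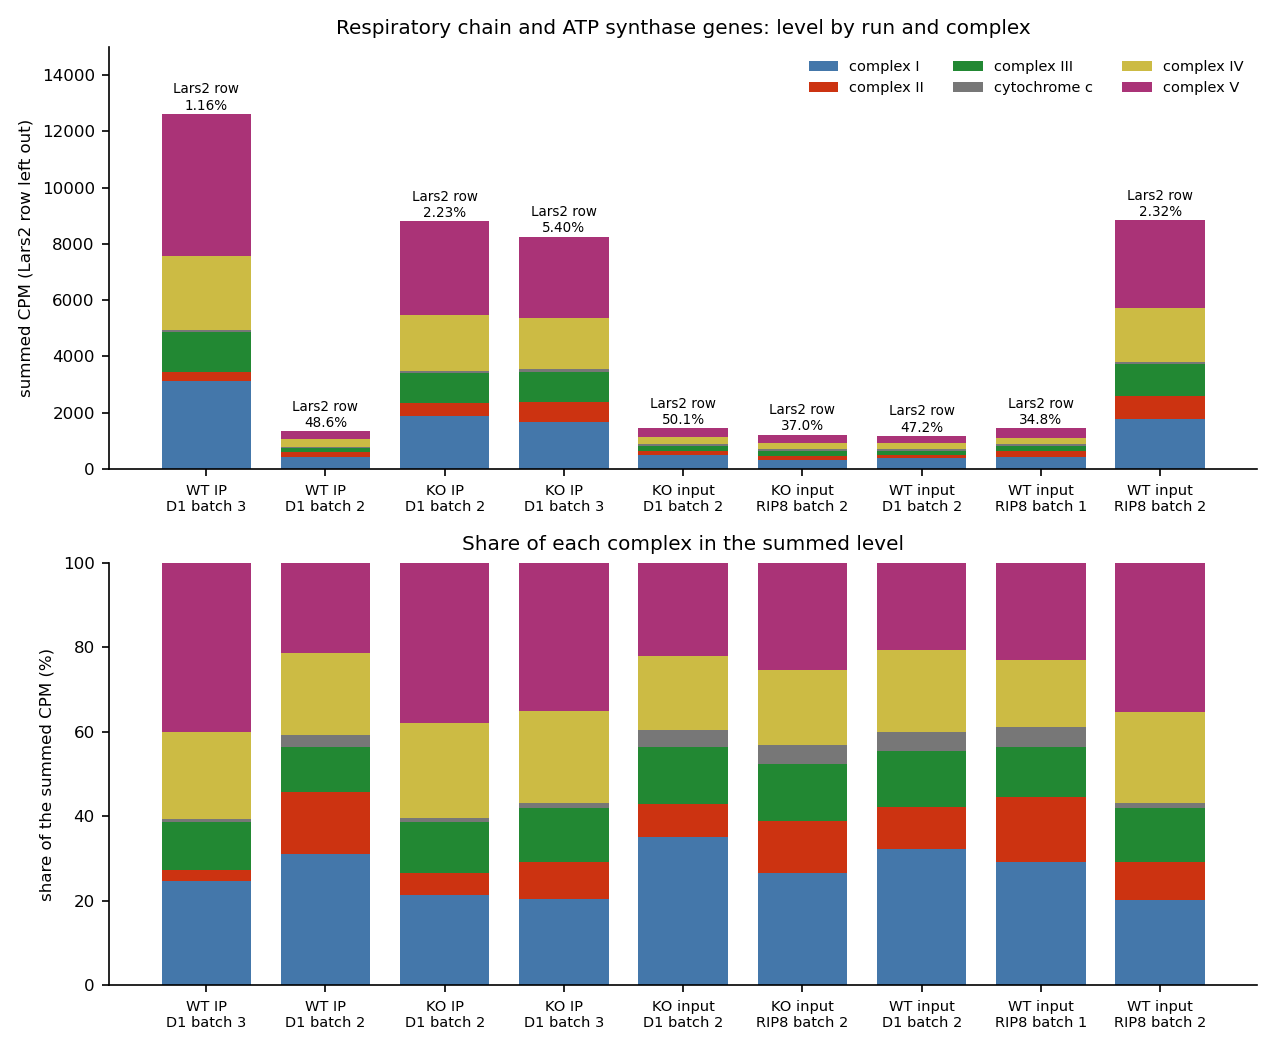
Upper panel, summed CPM of the members in each of the 9 runs as labelled (Lars2 row left out), stacked by complex, with the share of counts in the Lars2 row above each bar. Lower panel, the share of each complex in that sum (%). The 4 runs with 1.16 to 5.40% Lars2 counts reach 8260 to 12628 CPM and the other 5 stay at 1181 to 1454 CPM; complex II is narrowest in WT IP D1 batch 3.

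The complexes did not keep their proportions. Complex V made up 40.0% of the summed level in WT IP D1 batch 3, 38.0 and 35.1% in the KO IP D1 runs of batches 2 and 3, and 35.2% in WT input RIP8 batch 2, but 20.7 to 25.4% in the 5 Lars2-rich runs. Complex I ran the other way, with 20.1 to 24.7% in the Lars2-poor runs and 26.6 to 35.1% in the Lars2-rich runs. Cytochrome c held 0.637 to 1.17% in the Lars2-poor and 2.93 to 4.79% in the Lars2-rich runs. Complexes III (10.6 to 13.4% over all runs) and IV (15.9 to 22.5%) moved least. Complex II, the only complex without a mitochondrially encoded subunit, held 2.57% in WT IP D1 batch 3, against 5.19 and 8.74% in the KO IP D1 runs of batches 2 and 3, and 9.15% in WT input RIP8 batch 2. Its share in WT IP D1 batch 3 was thus the lowest of all 9 runs, since the Lars2-rich runs held 7.90 to 15.3%.

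Within complex I, the 4 members with the highest summed count were accessory subunits. Ndufa10 had 388 and 24.7 CPM in WT IP D1 batches 3 and 2, and 286 and 182 CPM in KO IP D1 batches 2 and 3. Its KO inputs held 25 CPM (D1) and 17.5 CPM (RIP8), and its WT inputs 20.8 CPM (D1), 15.8 CPM (RIP8 batch 1) and 156 CPM (RIP8 batch 2). Its highest run was therefore WT IP D1 batch 3, yet the other run of the same library stood among the inputs. Ndufs6, a zinc-binding subunit, had 373 CPM (95% Poisson interval 355 to 393) and 4.93 CPM in WT IP D1 batches 3 and 2, and 104 and 83.2 CPM in KO IP D1 batches 2 and 3. In the inputs Ndufs6 had 15 and 3.5 CPM in KO (D1 and RIP8), and 0, 9.45 and 76.8 CPM in WT (D1, RIP8 batch 1 and RIP8 batch 2). The WT IP D1 batch 3 value was thus over 3 times that of every other run. Ndufa2 showed the same order at the top, with 367 and 29.6 CPM in WT IP D1 batches 3 and 2 and 125 and 80.7 CPM in KO IP D1 batches 2 and 3. Its inputs held 30 and 7.01 CPM in KO, and 15.6, 18.9 and 85.9 CPM in WT. Ndufv3 did not: it had 152 and 14.8 CPM in WT IP D1 batches 3 and 2, 90.1 and 118 CPM in KO IP D1 batches 2 and 3, 5.00 and 14 CPM in the KO inputs, and 5.2, 15.8 and 148 CPM in the WT inputs, so WT IP D1 batch 3 and WT input RIP8 batch 2 were alike.

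Further complex I members are shown because the comparisons below name them. Ndufv1, the core subunit that binds NADH, was lowest in WT IP D1 batch 3, with 2.51 CPM (10 counts, 95% interval 1.2 to 4.61), and had 9.87 CPM in batch 2 of that library. Its KO IP D1 runs held 10.2 and 19.9 CPM, its KO inputs 35.0 and 10.5 CPM, and its WT inputs 10.4, 25.2 and 16.2 CPM. Ndufab1, the mitochondrial acyl carrier protein, which also serves fatty acid and lipoate synthesis, was among the members that stood higher in the Lars2-rich runs. Its level was 16.8 and 79.0 CPM in WT IP D1 batches 3 and 2, 15.4 and 8.52 CPM in KO IP D1 batches 2 and 3, 75 and 38.5 CPM in the KO inputs, and 62.5, 41.0 and 9.54 CPM in the WT inputs. Ndufb8, a membrane arm subunit, behaved like Ndufab1, with 7.52 and 54.3 CPM in WT IP D1 batches 3 and 2, 8.08 and 7.30 CPM in KO IP D1 batches 2 and 3, 35.0 and 21.0 CPM in the KO inputs, and 72.9, 37.8 and 6.36 CPM in the WT inputs. These 2 genes ranged from 6.36 to 79.0 CPM, and in the Lars2-rich runs rested on 6 to 16 counts each.

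Complex II is succinate dehydrogenase, with the flavoprotein Sdha, the iron-sulfur protein Sdhb and the membrane anchors Sdhc and Sdhd. Sdha had 160 and 88.8 CPM in WT IP D1 batches 3 and 2, 144 and 247 CPM in KO IP D1 batches 2 and 3, 40.0 and 70.1 CPM in the KO inputs, and 52.0, 94.5 and 271 CPM in the WT inputs. Sdhd had 79.9 and 24.7 CPM in WT IP D1 batches 3 and 2, 145 and 238 CPM in KO IP D1 batches 2 and 3, 25 and 31.5 CPM in the KO inputs, and 31.2, 66.2 and 264 CPM in the WT inputs. Sdhc had 53.4 and 83.9 CPM in WT IP D1 batches 3 and 2, 126 and 188 CPM in KO IP D1 batches 2 and 3, 50 and 49.0 CPM in the KO inputs, and 31.2, 53.6 and 226 CPM in the WT inputs. For both anchors, and for Sdhb (31.6 CPM against 40.6 to 49.1 CPM), WT IP D1 batch 3 was the lowest of the Lars2-poor runs. That run was also the lowest of them in 55.1% of all 11496 rows tested. Sdhc was so low there that the run overlapped the Lars2-rich runs.

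In complex III, Uqcrh, the hinge protein at cytochrome c1, had 426 and 24.7 CPM in WT IP D1 batches 3 and 2, 246 and 170 CPM in KO IP D1 batches 2 and 3, 45.0 and 17.5 CPM in the KO inputs, and 62.5, 31.5 and 176 CPM in the WT inputs. Uqcr10, a small subunit, was level across the Lars2-poor runs, with 216 CPM in WT IP D1 batch 3, 199 and 210 CPM in KO IP D1 batches 2 and 3, and 233 CPM in WT input RIP8 batch 2. In the Lars2-rich runs Uqcr10 had 19.7 CPM in WT IP D1 batch 2, 25 and 28.0 CPM in the KO inputs, and 26.0 and 47.3 CPM in WT input D1 and RIP8 batch 1. Cycs, the mobile electron carrier, varied least of the members shown in full, with 80.4 and 39.5 CPM in WT IP D1 batches 3 and 2, 75.8 and 96.6 CPM in KO IP D1 batches 2 and 3, 60.0 and 56.0 CPM in the KO inputs, and 52.0, 69.3 and 94.2 CPM in the WT inputs.

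In complex IV, Cox7a2l, which helps join complexes III and IV into supercomplexes, had the highest summed count of all members (10752). It had 1188 and 133 CPM in WT IP D1 batches 3 and 2, 803 and 450 CPM in KO IP D1 batches 2 and 3, 105 and 38.5 CPM in the KO inputs, and 104, 63.0 and 421 CPM in the WT inputs. Cox6a1, the widely expressed form of subunit VIa, had 348 and 19.7 CPM in WT IP D1 batches 3 and 2, 274 and 276 CPM in KO IP D1 batches 2 and 3, 30 and 28.0 CPM in the KO inputs, and 15.6, 34.7 and 350 CPM in the WT inputs, so WT IP D1 batch 3 and WT input RIP8 batch 2 did not differ there. Cox8a went the other way from Cox7a2l. It had 81.9 CPM (95% interval 73.3 to 91.3) and 14.8 CPM in WT IP D1 batches 3 and 2, 197 and 337 CPM in KO IP D1 batches 2 and 3, 15 and 35.0 CPM in the KO inputs, and 20.8, 22.1 and 357 CPM in the WT inputs. WT IP D1 batch 3 was thus the lowest Lars2-poor run for Cox8a and the highest for Cox7a2l.

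Complex V is shown by stalk subunits and the catalytic head. Atp5e, the epsilon subunit of the central stalk, had 1416 CPM (95% interval 1380 to 1454) and 24.7 CPM in WT IP D1 batches 3 and 2, 475 and 241 CPM in KO IP D1 batches 2 and 3, 20.0 and 28.0 CPM in the KO inputs, and 36.4, 12.6 and 241 CPM in the WT inputs. The subunits of the catalytic head differed less between the Lars2-poor runs. Atp5a1, the alpha subunit, was highest in the same run, with 797 and 44.4 CPM in WT IP D1 batches 3 and 2, 592 and 544 CPM in KO IP D1 batches 2 and 3, 45.0 and 52.6 CPM in the KO inputs, and 52.0, 59.9 and 599 CPM in the WT inputs. Atp5b, the beta subunit that holds the catalytic sites, had 437 and 29.6 CPM in WT IP D1 batches 3 and 2, 475 and 543 CPM in KO IP D1 batches 2 and 3, 20.0 and 35.0 CPM in the KO inputs, and 10.4, 28.4 and 582 CPM in the WT inputs. Atp5d, the delta subunit of the stalk, had 703 and 83.9 CPM in WT IP D1 batches 3 and 2, 723 and 568 CPM in KO IP D1 batches 2 and 3, 110 and 63.1 CPM in the KO inputs, and 52.0, 81.9 and 571 CPM in the WT inputs. Its partner in the stalk, Atp5e, thus differed far more between the Lars2-poor runs than Atp5d did.

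**Figure D2:**
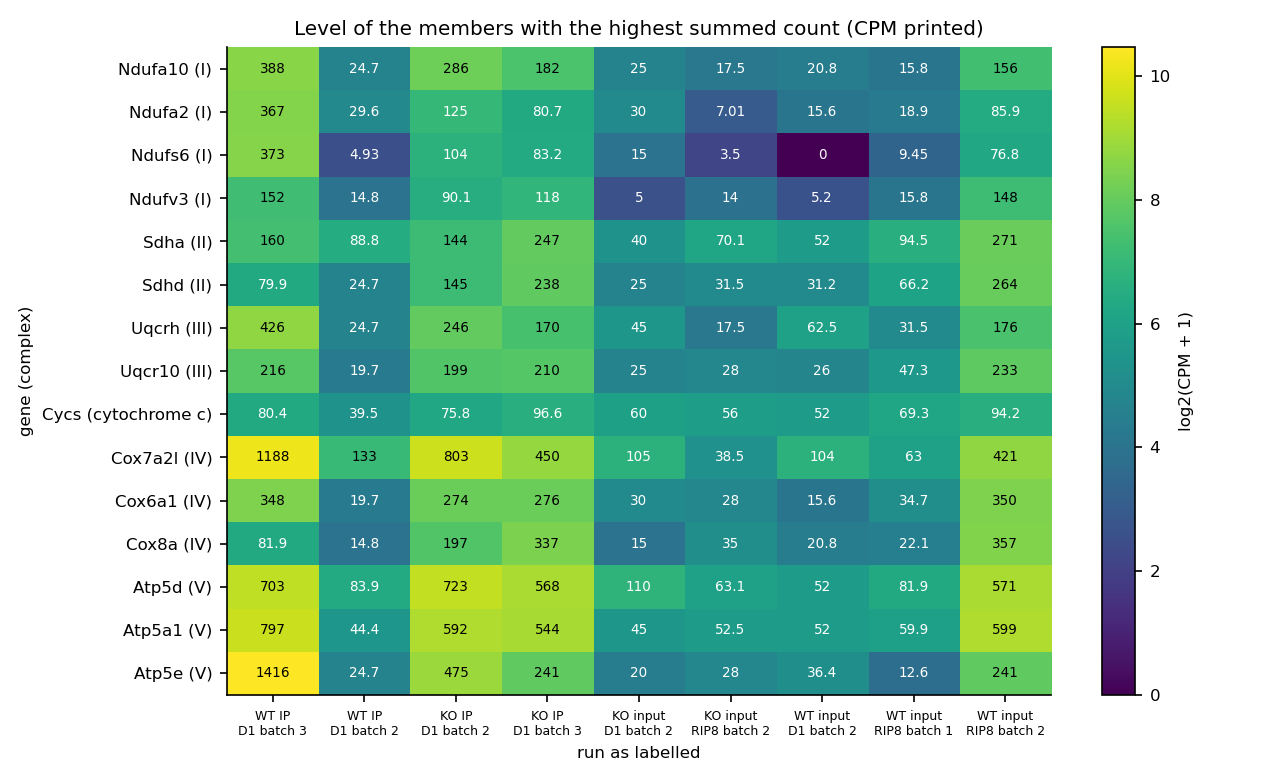
CPM (printed in each cell) of the members with the highest summed count per complex, in the 9 runs as labelled; colour is log2(CPM + 1). The columns of WT IP D1 batch 3, both KO IP D1 runs and WT input RIP8 batch 2 are high for every gene shown except Cycs and, in WT IP D1 batch 3, Sdhd and Cox8a; Atp5e reaches 1416 CPM in WT IP D1 batch 3.

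Paralogue pairs were read for which forms had counts. Of the tissue-restricted forms of complex IV, Cox8b (heart and skeletal muscle) had 0 counts in all 9 runs and Cox4i2 (lung) had 6 counts in all, whereas the widely expressed partners Cox8a and Cox4i1 had summed counts of 3403 and 3227. Cox7a1, the muscle form, summed to 52 counts and at most 5.2 CPM, against 2156 for Cox7a2. Cox6a2, the muscle partner of Cox6a1, had 22.6 CPM in WT IP D1 batch 3, 16.4 and 1.62 CPM in KO IP D1 batches 2 and 3, and 0.490 CPM in WT input RIP8 batch 2. The rows of Cox6a2 and Cox4i2 were named by order, the alternatives being Itgad and Bcl2l1. Cox6b2, the testis partner of Cox6b1, had 11.8 CPM in WT IP D1 batch 3, 8.86 and 1.62 CPM in KO IP D1 batches 2 and 3, and 4.41 CPM in WT input RIP8 batch 2. Ndufa4, first described in complex I and since placed with complex IV, summed to 1469 counts, against 55 for Ndufa4l2, a hypoxia-induced paralogue. Of the genes for the c subunit of the ATP synthase ring only Atp5g3 had a named row. It had 160 and 19.7 CPM in WT IP D1 batches 3 and 2, 163 and 177 CPM in KO IP D1 batches 2 and 3, 10.0 and 21.0 CPM in the KO inputs, and 36.4, 25.2 and 198 CPM in the WT inputs. UTR lengths are not in the table, so counts of different genes are not levels that can be ranked, and only the near absence of a form is read from them.

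The IP runs of batch 3 are the only WT and KO pair of IP runs that were both Lars2-poor. With 1 run on each side there is no test, and intervals cover counting error only. The summed members were 1.53 times higher in WT IP D1 batch 3 than in KO IP D1 batch 3 (log2 ratio 0.61, 95% interval 0.59 to 0.64). By complex, the log2 ratio of the sums was 0.90 for complex I, −1.15 for complex II, 0.42 for complex III, −0.26 for cytochrome c, 0.54 for complex IV and 0.80 for complex V. The sum of complex II thus stood 2.22 times lower in the WT IP run while those of complexes I, III, IV and V stood higher. Scaling by TMM moved every ratio up by 0.52. It moved the median of all 9500 rows with at least 10 counts in both runs from −0.40 to 0.12. The sum of complex II stayed below 0 (−0.63) and cytochrome c turned to 0.25. Without TMM, the medians over members with at least 10 counts in both runs were 0.69 (complex I), −1.11 (II), 0.27 (III), 0.14 (IV) and 0.31 (V). Single genes weighed on the sums. Cox7a2l held 4742 of the 10473 complex IV counts in the WT IP run and 1108 of 4440 in the KO IP run. The 2 runs also differed in Lars2 share (1.16 and 5.40%) and in marker levels, with CD8 T cell markers at 4252 CPM in the WT IP run and 9180 CPM in the KO IP run, and the part of these in the ratios was not tested. KO IP D1 batch 3 was close to WT input RIP8 batch 2. Between them 0 of 77 members were at least 2-fold apart, against 0.792% (higher) and 0.411% (lower) of all rows. Over that input run, WT IP D1 batch 3 gave log2 ratios of 0.51 for the summed members and −1.32 for complex II. There 19 of 77 members were at least 2-fold higher, against 12.7% of all rows, and 6 lower, against 31.5%. A run labelled WT input thus gave much the same ratios.

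Among 76 members with at least 10 counts in both runs of batch 3, 50 were higher in WT IP than in KO IP (median log2 ratio 0.32), against 36.6% of all rows. At least 2-fold higher were 19 of 76, against 12.6% of all rows, and at least 2-fold lower were 8 of 76, against 31.2% of all rows. With TMM scaling 62 of 76 members were above 0, 33 were at least 2-fold higher and 4 at least 2-fold lower, while of all 9500 rows 2204 were at least 2-fold higher and 1636 at least 2-fold lower. The 19 were 11 members of complex I (Ndufa2, Ndufs6, Ndufb6, Ndufb7, Ndufa6, Ndufa5, Ndufs5, Ndufv2, Ndufb2, Ndufa10 and Ndufb11), 4 of complex V (Atp5e, Atp5k, Atp5l and Atp5o), 3 of complex IV (Cox4i1, Cox7a2l and Cox5a) and Uqcrh. Atp5e led with a log2 ratio of 2.56 (95% interval 2.43 to 2.68), followed by Atp5k, the small membrane subunit e, at 2.49 (2.17 to 2.83), Ndufa2 at 2.18 and Ndufs6 at 2.17. The 8 lower members were Ndufv1 (−2.99, 95% interval −4.13 to −1.99), Cox8a (−2.04), Sdhc (−1.82), Sdhd (−1.58), the complex III subunits Cyc1 (−1.07) and Uqcrb (−1.02), Atp5j (−1.05) and Ndufb5 (−1.02). Ndufb5 rested on only 12 counts in the WT IP run and 15 in the KO IP run. Subunits of the same complex thus lay on both sides, in complex IV from −2.04 for Cox8a to 1.75 for Cox4i1 and in complex V from −1.05 for Atp5j to 2.56 for Atp5e. All 4 complex II members lay below 0, with Sdha at −0.63 and Sdhb at −0.64.

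Runs named for the same library would show technical differences only if their labels hold, which was not tested. The 2 IP libraries with such runs behaved differently. WT IP D1 batch 3 stood above batch 2 by a log2 ratio of 3.23 for the summed members (9.37-fold), with complex II at 0.72 and complex V at 4.14, and only 7 members had at least 10 counts in both runs. Between the KO IP D1 runs of batches 2 and 3, 0 of 76 members were at least 2-fold higher, against 7.28% of 9803 rows, and 0 at least 2-fold lower, against 9.95%, and the median log2 ratio was −0.015. The ends of the range were Atp5e at 0.98, which passed 2-fold with TMM scaling (1.02), and Ndufv1 at −0.97. Complex II was again the complex that differed most, with all 4 members lower in batch 2 (−0.27 to −0.78) and a log2 ratio of the sums of −0.66. Batch 2 cannot serve as a second pair, since its WT IP D1 run was Lars2-rich and its KO IP D1 run Lars2-poor: there the summed members had a log2 ratio of −2.71, with 273 counts for WT IP and 33792 for KO IP. Set among all 4 Lars2-poor runs, WT IP D1 batch 3 was the highest in 45 of 80 members, against 22.9% of all rows, and the lowest in 20, against 55.1%. By complex it was the highest in 26 of 38 members of complex I, 5 of 9 of complex III, 6 of 13 of complex IV, 8 of 15 of complex V and 0 of 4 of complex II, where it was the lowest for Sdhb, Sdhc and Sdhd.

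**Figure D3:**
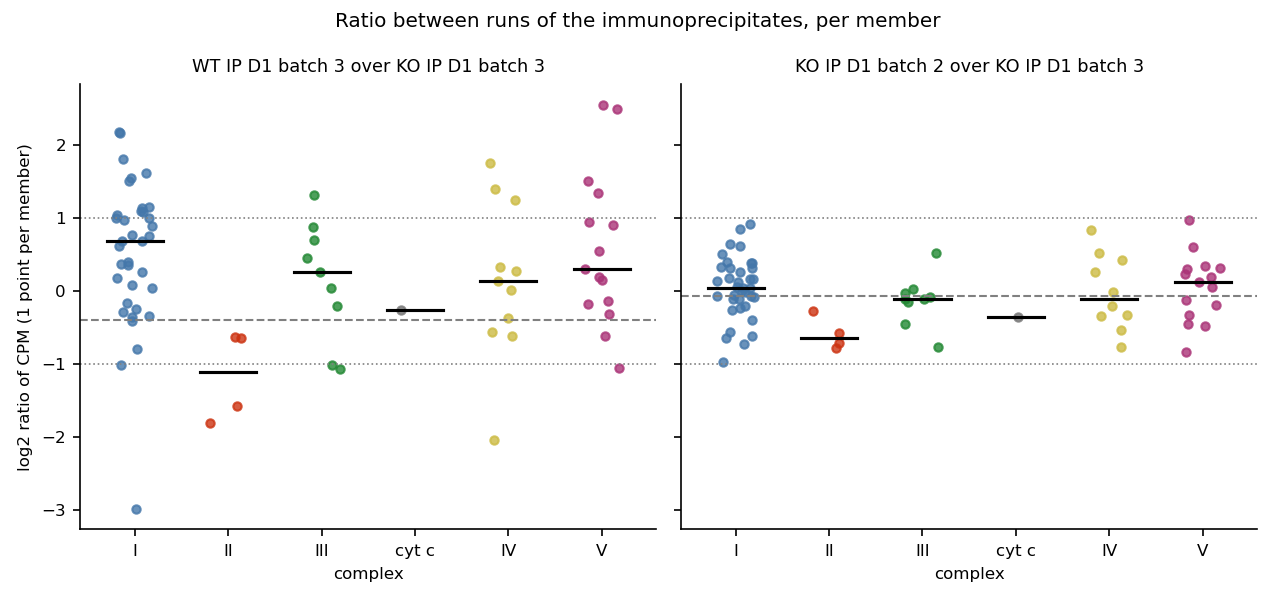
log2 ratio of CPM for each member with at least 10 counts in both runs, by complex: left, WT IP D1 batch 3 over KO IP D1 batch 3; right, KO IP D1 batch 2 over KO IP D1 batch 3. Black bars are medians of the members, the dashed line is the median of all rows (−0.40 and −0.06) and dotted lines mark 2-fold; the left panel runs from −2.99 (Ndufv1) to 2.56 (Atp5e), whereas no point of the right panel passes 2-fold.

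Whether precipitation of an mRNA depends on CPEB4 is addressed by the IP over input ratio in WT set against that in KO. No member passed. By edgeR's quasi-likelihood test at an adjusted p of 0.05, 0 of 11496 rows were called (0%) and 124 (1.08%) had an unadjusted p under 0.05, among them 7 of 80 members, all lower. DESeq2 called 0 as well, with 52 at an unadjusted p under 0.05. The members' median was −1.50 on the log2 scale, with 11 of 80 above 0, against a median of −0.27 for all rows. Both the direction and the number of rows called changed with the input libraries, and fits without 1 of them tested other sets of rows. Without the library labelled WT input RIP8 the members' median was 1.07. The members above 0 with the smallest p were Ndufab1 (1.76 ± 1.49 SE), Ndufs4 (0.94 ± 1.31) and Ndufa13 (0.35 ± 1.66), each with an adjusted p of 1.00. Ndufs4, an accessory subunit, had 313 counts in the WT IP library and 272 in the KO IP library, against 15 in KO input and 184 in WT input, and Ndufa13, also called Grim19, had 327, 407, 14 and 231 counts in that order. Those below 0 were Cox8a (−4.34 ± 1.75), Sdhd (−3.42 ± 1.51) and Sdhc (−2.66 ± 1.43). For Cox8a the WT IP library held 330 counts and the KO IP library 1589, against 13 in KO input and 1471 in WT input. Ndufa7, Sdhb and Atp5j had 0 counts in both KO inputs, so their fitted values are not sizes. Against 3 counts over the KO inputs, with the WT inputs pooled, their bounds were 11-fold, 9.25-fold and 5.65-fold lower. These bounds hold for the pooled WT inputs only. WT input D1 had 0, 1 and 1 counts for the 3 genes in that order, and WT input RIP8 batch 2 had 287, 198 and 112. The median with the 3 genes at their bounds was again −1.50.

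Set directly against KO IP, the WT IP library gave no called member either. Each IP group is 1 library here, so each is assumed to vary like the inputs, and the libraries held 4187643 counts (WT IP) and 6293840 counts (KO IP) over the rows tested. By edgeR 0 of 11496 rows passed (0%) and 33 (0.287%) had an unadjusted p under 0.05, with 0 members among them, and DESeq2 also called 0, with 31 at an unadjusted p under 0.05. The members' median log2 fold change was 0.61 with 65 of 80 above 0, against −0.01 for all rows. It was 0.88 in complex I (32 of 38 above 0), −0.57 in complex II (1 of 4), 0.54 in complex III (7 of 9), 0.60 in complex IV (11 of 13) and 0.61 in complex V (13 of 15). Complex II was thus the only complex with a median below 0. The WT IP library came mostly from its batch 3 run, with 3990722 counts against 202633 in batch 2. These medians thus largely reuse the run already set against KO IP above and are not separate evidence. Closest to the threshold on the higher side were Atp5k (2.34 ± 1.16 SE, 775 counts for WT IP and 287 for KO IP), Ndufa2 (2.03 ± 1.14, 1471 and 677 counts) and Atp5e (2.14 ± 1.22, 5657 and 2415 counts). On the lower side were Ndufv1 (−1.95 ± 1.32, 12 counts for WT IP and 88 for KO IP), Cox8a (−1.36 ± 1.33) and Sdhc (−1.13 ± 1.13, 230 and 948 counts). The adjusted p was 1.00 for each of the 6. With the runs that are not batch 2 where a library has one, 537 of 7933 rows tested were called, among them 8 of 68 members. With 1 input library left out at a time, the members' median ran from 0.61 to 0.69 and the number of rows called changed. In the batch 2 runs alone the medians of complexes I, III, IV and V turned below 0 (−3.34 to −3.99), as did Atp5k, Ndufa2 and Atp5e. In that batch the Lars2 share was 48.6% in the WT IP run and 2.23% in the KO IP run, and its part in this was not tested.

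WT IP against WT input and KO IP against KO input ask what precipitation enriches. For WT, edgeR called 0 of 11496 rows (0%), 878 (7.64%) had an unadjusted p under 0.05, and 14 of 80 members were among these, all higher. The members' median was 1.33 with 69 of 80 above 0, against −0.10 for all rows, and DESeq2 called 28 rows, 1 of them a member. Atp5e (3.76 ± 1.00 SE), Ndufa2 (3.18 ± 0.94) and Atp5k (3.15 ± 0.95) had the smallest p on the higher side, each with an adjusted p of 0.579. On the lower side were Ndufv1 (−1.86 ± 1.24), Ndufb8 (−1.21 ± 1.24) and Sdhc (−0.78 ± 1.00), with an adjusted p of 0.668 to 0.812. Atp5k had 775 counts in the WT IP library, against 1 in WT input D1 and 186 in WT input RIP8, nearly all of the input counts thus coming from the RIP8 library. Without WT input D1 the test called 1062 rows (11 members) and without WT input RIP8 2639 rows (52 members). For KO, edgeR called 0 rows (0%), 1723 (15%) had an unadjusted p under 0.05, and 47 of 80 members were among these, all higher. DESeq2 called 188 rows, 5 of them members. The members' median was 2.90 (2.88 with the 3 genes at their bounds) with 72 of 80 above 0, against 0.20 for all rows. Atp5e (4.24 ± 1.08), Ndufa10 (3.82 ± 1.04) and Cox7a2l (3.53 ± 1.01) had the smallest p, with an adjusted p of 0.259 each. Ndufab1 (−1.85 ± 1.12), Ndufb8 (−1.54 ± 1.28) and Ndufv1 (−0.36 ± 1.17) stood on the lower side. Both KO inputs are Lars2-rich and both KO IP runs Lars2-poor, so Lars2 share and group cannot be told apart here. With 1 input library left out at a time, the members' median ran from 2.91 to 3.20. The number of rows called changed even without a WT input library, which enters through the shared spread. The WT IP and KO IP comparisons with input share no library.

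KO input against WT input asks whether the knockout alters the RNA itself. Here edgeR called 0 of 11496 rows (0%), 600 (5.22%) had an unadjusted p under 0.05, and 33 of 80 members were among these, all lower. DESeq2 called 28 rows, 0 of them members. The members' median was −2.12 with 7 of 80 above 0, against −0.10 for all rows. This direction rests on 1 library: WT input RIP8 batch 2 is the only Lars2-poor input run, and with its library left out the members' median was 0.47. Over the fits with 1 input library left out, the members' median ran from −2.81 to 0.47 and the number of rows called changed. Atp5b (−3.5 ± 1.26 SE), Atp5a1 (−2.83 ± 1.02) and Cox8a (−2.98 ± 1.08) had the smallest p, with an adjusted p of 0.953 each. Atp5b had 4 and 10 counts in KO inputs D1 and RIP8, against 2 and 2388 in WT inputs D1 and RIP8. Only 2 members with enough counts stood above 0, Ndufab1 (0.80 ± 0.93) and Ndufv1 (0.45 ± 1.04). Where both inputs were Lars2-rich the summed members were as follows: KO input D1 had 291 counts and WT input D1 had 227, a log2 ratio of 0.30 (95% interval 0.04 to 0.56), and KO input RIP8 batch 2 had 350 counts against 459 in WT input RIP8 batch 1, a log2 ratio of −0.24 (−0.44 to −0.03). Each pair is 1 run a side and the intervals cover counting error only, so no difference between the groups is read from them.

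**Figure D4:**
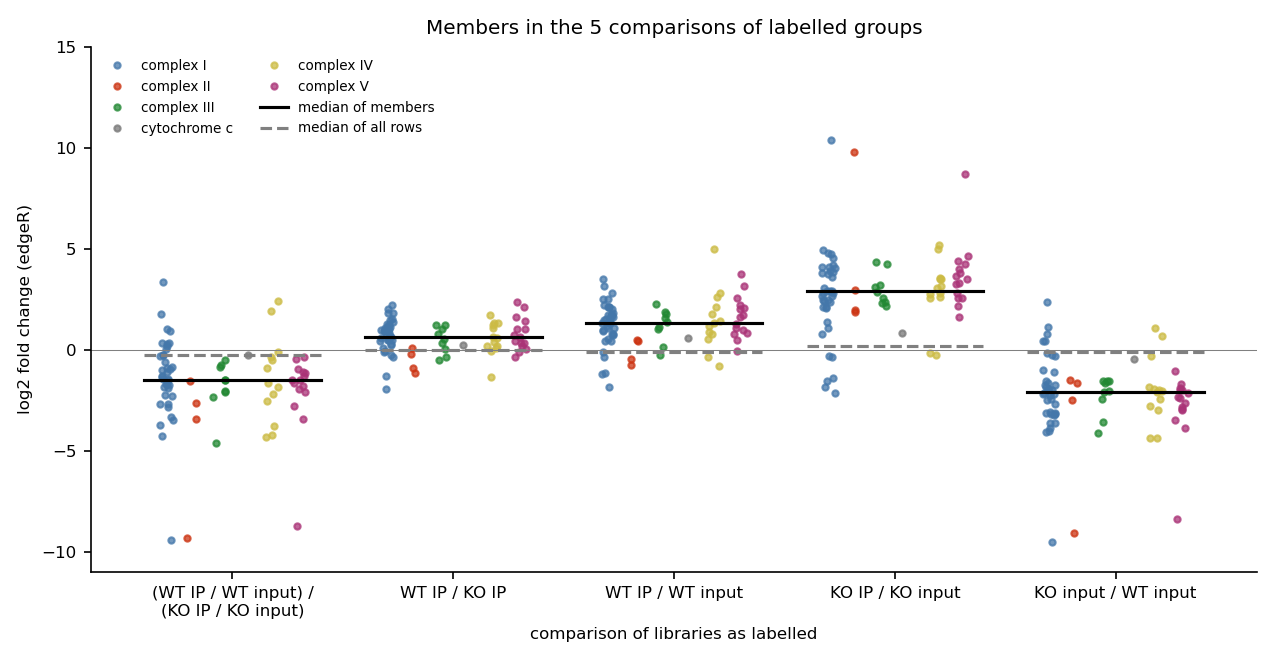
edgeR log2 fold change of each tested member in the 5 comparisons of labelled groups, coloured by complex, with the median of the members (black) and of all 11496 rows (dashed). No member passed an adjusted p of 0.05 in any of them; the outlying points far below and above the rest are Ndufa7, Sdhb and Atp5j, which had 0 counts in both KO inputs.

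Other mitochondrial genes were read from the same fits. None of 48 assembly factors, 16 tricarboxylic acid cycle genes, 17 genes of mitochondrial transcription and biogenesis, and 25 import and carrier genes passed the threshold in any of the 5 comparisons. Between WT IP and KO IP, 32 of 48 assembly factors were above 0 (median 0.35), 10 of 16 cycle genes (0.14), 9 of 17 transcription and biogenesis genes (0.05) and 14 of 25 import and carrier genes (0.02), against 0.61 for the members and −0.01 for all rows. The lists were not tested against each other. Of the 2 genes with the highest summed count in each list, Slirp, which stabilises mitochondrial mRNAs, had 562 CPM in WT IP D1 batch 3 and 286 CPM in KO IP D1 batch 3, and Yy1, the factor of the promoter letters above, had 337 and 268 CPM in those runs. The other 6 were lower in the WT IP run. Vdac1, the outer membrane channel, had 264 CPM in WT IP D1 batch 3 and 804 CPM in KO IP D1 batch 3, and Slc25a5, an ADP/ATP carrier, had 177 and 471 CPM. Cs, citrate synthase, had 143 CPM in the WT IP run and 421 CPM in the KO IP run, and Ogdh, a subunit of the 2-oxoglutarate dehydrogenase complex, had 157 and 211 CPM. Cox17, the copper chaperone of complex IV, had 243 CPM in the WT IP run and 265 CPM in the KO IP run, and Coa5, another assembly factor of complex IV, had 117 and 196 CPM. With TMM scaling, which moves this ratio up by 0.52 on the log2 scale, Cox17 and Ogdh would stand higher in the WT IP run. In KO IP against KO input, all 16 cycle genes and all 25 import and carrier genes were above 0, against 54.5% of all rows. Their medians were 2.18 and 2.39, beside 2.90 for the members and 0.20 for all rows. Of the assembly factors 34 of 48 were above 0 (0.47). As said above, Lars2 share and group cannot be told apart in this comparison.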

How the data were processed

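The authors deposited whole-number counts per 3′ UTR and run. Per the submitters' processing notes, Bowtie 1.2.3, Bowtie2 2.2.2, featureCounts, R 3.5.1 and build mm10 were used; their order and roles are not stated there. Rows were named by position from RefSeq GRCm38.p6, which named 18603 of 20586 rows. Of the columns, 9 of 20 were in register with the row names and 0 lacked a sample. In the register check, 25 of 49 neighbouring rows with the same start were identical in these columns, against 0 of 60 in the others, which were not used. Runs of a library were summed to 6 libraries and the Lars2 row removed. Tests were edgeR 4.0.16 (R 4.3.3) quasi-likelihood F tests with TMM factors, filterByExpr at a minimum count of 10, group means and Benjamini-Hochberg adjustment over 11496 rows, checked on simulated counts. There are 2 residual degrees of freedom, both from inputs, and the common dispersion was 0.281. SE was taken as the size of the log2 change divided by √F and restates the test. DESeq2 1.42.0, no TMM, no filter, the Lars2 row kept, other runs, each input library left out and the experiment as a block were alternatives. Members shown in full were those with the highest summed counts per complex; for each comparison the 3 higher and 3 lower members with the smallest p and at least 10 counts in each group were named. Members and lists were chosen with earlier results of these data known. Intervals and ratios of runs cover counting error only, and depth per run stands with the results.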

Additional observations from a re-analysis of the deposited data

Results flagged for a closer look

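The summed level of the members differed between WT IP D1 and KO IP D1 in opposite directions in the 2 sequencing batches, with a log2 ratio of 0.61 in batch 3 and −2.71 in batch 2. Complexes I, III, IV and V were above 0 in batch 3 and below 0 in batch 2 (−2.16, −2.91, −2.92 and −3.55). Complex II (−1.15 and −1.21) and cytochrome c (−0.26 and −0.94) were below 0 in both. Since every complex was below 0 in batch 2, the shared sign does not set complex II apart there. Complex II was the lowest complex in batch 3, yet in batch 2 it was less lowered than complexes I, III, IV and V. Its batch 2 value sets only 40 counts from the WT IP run against 1753 from the KO IP run. For cytochrome c the shared sign depends on the scaling, since TMM gives 0.25 in batch 3. Its batch 2 value rests on 8 counts in WT IP (95% interval −2.17 to 0.06). The difference between the batches was not tested, since each side is 1 run. The Lars2 row held 1.16% of counts in WT IP D1 batch 3 and 5.40% in KO IP D1 batch 3, against 48.6% in WT IP D1 batch 2 and 2.23% in KO IP D1 batch 2.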

How the results depend on the processing

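Of the alternative values that answer a comparison, 91 were labelled the same, 23 moved and 6 reversed. Of those for single members, complexes and runs, 331 were the same, 54 passed the threshold only in the alternative, 24 moved and 27 reversed. A count of called rows was the same only if it was also 0. A median was the same if its sign held and it lay within 1.70 of the main value, the SD between input libraries of a group. This margin exceeds the main medians of WT IP against KO IP (0.61) and WT IP against WT input (1.33). The label thus does not show that a size held. With only batch 2 runs, the members' median was −6.02 for the interaction, −3.43 for WT IP against KO IP (complex I −3.43, III −3.59, IV −3.34, V −3.99; Atp5k −9.35, Ndufa2 −2.33, Atp5e −4.52) and −2.67 for WT IP against WT input (Atp5e −2.67, Ndufa2 −1.01, Atp5k −8.31, Ndufb8 0.62). In the interaction, Ndufs4 was then −0.30 and Ndufa13 −9.89. The fit of batch 2 runs tested 7234 rows and 59 members. Next, each library with a run outside batch 2 was read from that run only. The medians were then 0.87 for the interaction, 3.73 for WT IP against WT input and 0.031 for KO input against WT input. WT input D1, KO input D1 and KO input RIP8 still entered with batch 2 runs. All inputs were then Lars2-rich (34.8 to 50.1%) and both IP runs Lars2-poor (1.16 and 5.40%). Lars2 share and IP against input cannot be told apart in that setting. Of 7933 rows and 68 members tested there, 537 rows were called for WT IP against KO IP (350 higher and 187 lower, 8 members). For WT IP against WT input 3774 were called, and for KO IP against KO input 1770. Sdhc was then 0.94 in WT IP against WT input, Ndufv1 0.026 in KO IP against KO input, and Atp5b 0.43 and Cox8a 0.28 in KO input against WT input. DESeq2 called 28, 188 and 28 rows for WT IP against WT input, KO IP against KO input and KO input against WT input. With no filter on low counts 94, 594 and 84 of 14793 rows were called in that order. Leaving out 1 input library at a time, which leaves its group with a lone library assumed to vary like the others, gave 0 to 1186 called rows for the interaction, 0 to 22 for WT IP against KO IP, 0 to 2639 for WT IP against WT input, 0 to 2984 for KO IP against KO input and 0 to 2343 for KO input against WT input. These fits tested 7658 to 11627 rows and 65 to 80 members, so their counts do not share a base. The members' medians then ran from −2.22 to 1.07, 0.61 to 0.69, 0.73 to 4.4, 2.91 to 3.20 and −2.81 to 0.47 in that order. Single members that changed sign were Ndufa13 (−0.42 to 9.35) in the interaction, Ndufb8 (−2.36 to 0.59) and Sdhc (−1.55 to 1.35) in WT IP against WT input, Ndufv1 (−0.99 to 0.62) in KO IP against KO input, and Atp5b (−4.43 to 1.47), Cox8a (−3.84 to 0.37), Ndufab1 (−0.16 to 2.03) and Ndufv1 (−0.53 to 1.08) in KO input against WT input. The experiment names D1 and RIP8 are shared by both genotypes, but over 11496 rows the differences D1 minus RIP8 of WT and KO inputs correlated at only 0.18, in 2 pairs, so the names are not taken as pairs. With the replicate block 536 rows (30 members) were called for WT IP against WT input, 1977 (58 members) for KO IP against KO input and 2 (0 members) for KO input against WT input, and Sdhc was 0.46 in WT IP against WT input. The block changed neither count of the other 2 comparisons. Leaving out the run WT IP D1 batch 2, chosen after seeing the data, called 0 rows in each comparison, with 117 at an unadjusted p under 0.05 and a members' median of 0.77 in WT IP against KO IP. The cause of these changes was not tested. Depth limits the Lars2-rich runs, where all members together had 227 to 459 counts.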
